A study of Homo sapiens and Mus musculus with 9 samples.

Results

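Solute carriers are membrane proteins that move amino acids, sugars, nucleosides, vitamins, ions and metabolites across the cell surface and the membranes of organelles. They work as uniporters, symporters or exchangers, and the SLC25 family carries nucleotides, phosphate and metabolites across the inner mitochondrial membrane. When amino acids run short, cells raise the synthesis of ATF4, a transcription factor whose known targets include several amino acid carriers. The genes described here are those in 4 lists of small RNA peaks whose names fit the pattern SLC, a family number, A and a member number, without SLC7A1 and SLC7A5. They number 97 of 5745 gene names in the lists.

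The 6 libraries used come from HEK293, a human embryonic kidney line, labelled WT. Ribosome footprints were sequenced from a first library starved and transfected with a trans-RNA against ATF4 (trans1), a second with the same label (trans2), a starved library (starvation) and a control. Per the design text, the trans-RNAs were directed at the coding frame of the ATF4 transcript. The labels give neither the length nor the kind of starvation, nor whether trans1 and trans2 are repeats or different RNAs, so they were kept apart. A capped (cap) and a total small RNA library carry no treatment beyond the word control in their titles. There is 1 library per group, so no difference has a replicate check, no p-value was computed, and intervals of reads cover counting error only. Recovered footprint reads numbered 6136006 in trans1, 7545229 in trans2, 9381817 in starvation and 10659909 in control. Of 10 marker genes of the line, 5 were in the peak lists, and NEFL had 75.3, 68.9, 75.7 and 90.8 reads per 1000000 recovered reads (CPM) in trans1, trans2, starvation and control. None of 3 hepatocyte and 4 blood markers was in the peak lists. No RNA-seq of these cells was used here, so a change in mRNA and a change in translation of each mRNA cannot be told apart, and neither can fewer cells and less RNA per cell.

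Of the 97 solute carrier genes, 76 were listed in at least 1 footprint library and 57 in all 4. Reads per transcript could be recovered for 44 of them. Recovery needs reads at 8 or more positions in at least 2 libraries, among other conditions. Of the other 53 genes, 21 were listed in none, 9 in 1, 5 in 2, 5 in 3 and 13 in all 4 libraries. The 44 are therefore weighted to members with more footprints, and are not the whole family. Genes were put in classes of cargo by SLC family number, so a class can hold genes with another cargo. SLC6A3 and SLC6A8, carriers of dopamine and creatine, are thus counted with the amino acid carriers. Coverage differed by class, with 11 of 16 mitochondrial carriers recovered and 6 of 18 amino acid carriers. It was 4 of 15 for carriers of inorganic ions and 4 of 10 in the sugar families. The recovered share was 5 of 11 for metal carriers, 4 of 5 for monocarboxylate carriers and 5 of 8 for carriers of vitamins, nucleosides and lipids. Among genes tied to ATF4 in the literature, SLC38A2 and SLC1A5 were recovered, and SLC6A9, a glycine transporter, was listed in all 4 libraries but not recovered.

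The sequences below are promoter stretches from RefSeq (GRCh38.p14), which holds 123 windows of 250 bases before and 50 after a gene start for 80 of the 97 genes. The core TGATGNAA of the C/EBP-ATF composite element, to which ATF4 binds with a C/EBP partner, was searched on both strands because ATF4 was the target of the trans-RNAs. It was found in 5 of the 123 windows (4.07%), against 3.62% of 35116 windows of all genes. Each of the 5 is shown 5′ to 3′ with the motif in capitals, and the first belongs to SLC1A5, the only recovered gene among them. SLC1A5 has another window upstream of this one, and windows were not matched to the transcript whose footprints were read.
SLC1A5, chr19:46784893-46784922, minus strand: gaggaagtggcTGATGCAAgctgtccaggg
SLC1A3, chr5:36596357-36596386, plus strand: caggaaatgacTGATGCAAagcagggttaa
SLC11A1, chr2:218382208-218382237, plus strand: gaaccgaatgtTGATGTAAgaggcagggca
SLC17A7, chr19:49441748-49441777, minus strand: gggTGATGGAAcagggatagggggagtagc
SLC39A11, chr17:73092639-73092668, minus strand: cgagagagtggcagcgggggcTGATGGAAg

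The palindrome TGACGTCA, the cyclic AMP response element that ATF and CREB family proteins bind, was in 3 member windows (2.44%), against 1.85% of all windows. Of the genes shown next with this motif in capitals, SLC25A33 and SLC31A1 were recovered.
SLC25A33, chr1:9539405-9539434, plus strand: tcgcgcgcccgTGACGTCAcggtccggccc
SLC31A1, chr9:113221441-113221470, plus strand: cgagcgccgagTGACGTCAggcctctccag
SLC25A25, chr9:128098296-128098325, plus strand: ggagggagcggTGACGTCAgccctgatctt

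The E-box CACGTG, a site of MYC and MITF/TFE family factors, was in 13 member windows (10.6%), against 7.26% of all windows. Those of 3 genes that passed the 2-fold rule described further on are printed with the E-box in capitals. SLC25A33 held both motifs without overlap, TGACGTCA at -49 and CACGTG at -26 from its start. A match is a description of the letters, not a bound site.
SLC7A8, chr14:23154505-23154534, minus strand: cacaattagaaaCACGTGctcagttccttc
SLC19A1, chr21:45541797-45541826, minus strand: ttcgcgcccaggCACGTGttgcttcgggac
SLC2A13, chr12:40106089-40106118, minus strand: ggcccggggttgCACGTGacccgcggtccc

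Mitochondrial carriers held most of the footprints of the family. Levels are given as footprint density, which is reads per kb of recovered length and per 1000000 recovered reads. The SLC25 genes took 61.0% of member reads in trans1, 64.0% in trans2, 64.6% in starvation and 64.7% in control. Of member reads, SLC25A5 alone took 28.2%, 31.1%, 32.3% and 29.6% in the same order. SLC25A5, an ADP/ATP exchanger of the inner membrane, led in every library with densities of 789, 1144, 1095 and 1084 in trans1, trans2, starvation and control. SLC25A3, the phosphate carrier that feeds ATP synthesis, had 254, 307, 289 and 340 on the same density scale. Trans1 was the lowest library for both genes. SLC25A6 and SLC25A4, the other ADP/ATP exchangers, reached 92.4 and 110 in trans1, 142 and 135 in trans2, 98.5 and 139 in starvation, and 197 and 141 in control. These 3 genes are close paralogs, and the sources used here do not say how reads that fit more than 1 of them were placed. SLC25A1, the citrate carrier, had 121, 180, 157 and 162 in trans1, trans2, starvation and control.

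Outside the mitochondrial family the highest levels in control lay under those of the 6 highest mitochondrial carriers. SLC31A1, the copper importer, had footprint densities of 64.5, 83.8, 84.8 and 97.4 in trans1, trans2, starvation and control. SLC38A2, which brings in small neutral amino acids, had 58.7, 87.1, 72.5 and 81.0, and SLC1A5, a glutamine exchanger, 83.8, 106, 94.8 and 64.6. SLC2A3, a glucose transporter, had 49.2, 64.6, 57.7 and 71.5. SLC30A9, a zinc transporter of mitochondria, had 52.2, 56.8, 64.5 and 62.6. SLC29A2 and SLC35A4, described further on, had 77.1 and 73.9 in control, above SLC2A3. Genes close in level, such as SLC2A3 and SLC30A9, changed places between libraries. The median density of the 44 genes was 14.3, 16.9, 13.3 and 16.3, against 21.9, 24.6, 23.3 and 23.02 over all 10280 recovered transcripts. At the low end in control were SLC37A1, SLC6A3 and SLC2A13, with 2.63, 3.07 and 3.22. Together the 44 genes held 0.252% of recovered reads in trans1, 0.331% in trans2, 0.306% in starvation and 0.329% in control.

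**Figure D1:**
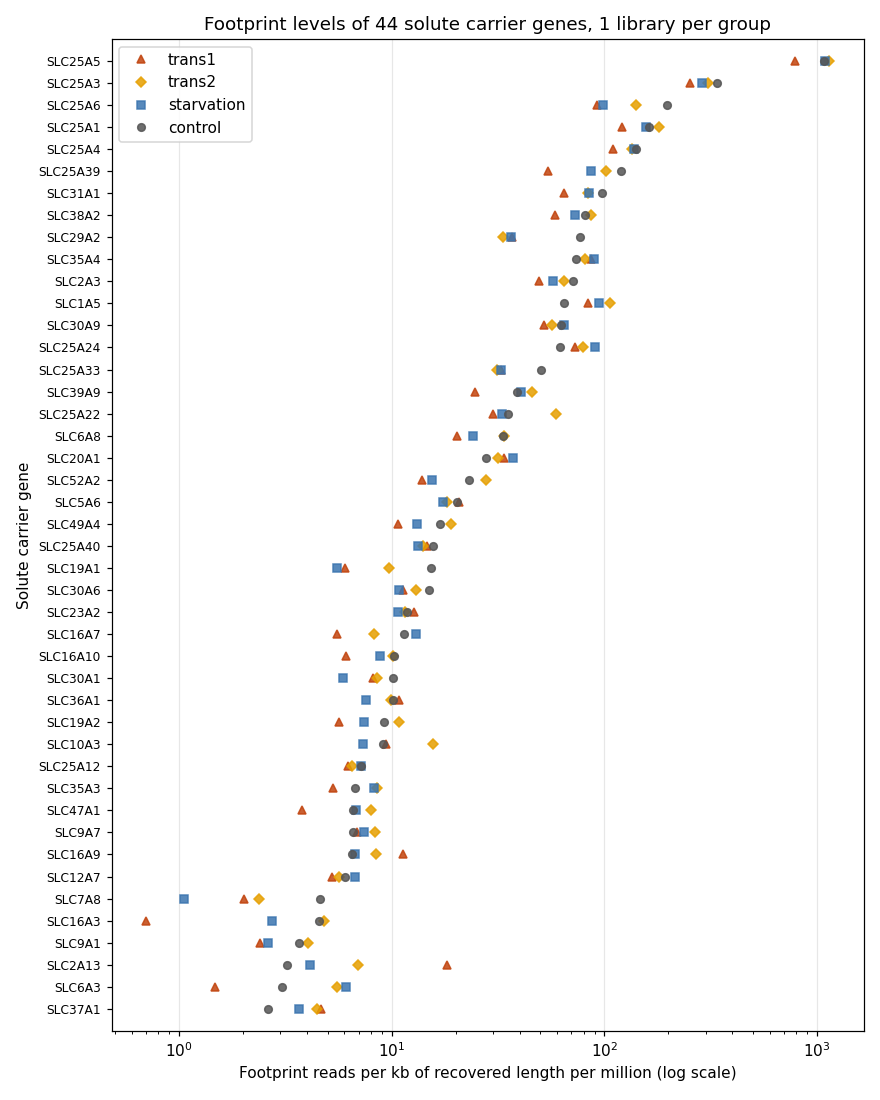
Footprint density, in reads per kb of recovered length and per 1000000 recovered reads (log scale), of the 44 recovered solute carrier genes, 1 point per library, sorted by control. SLC25A5 stands highest in all 4 libraries, from 789 in trans1 to 1144 in trans2, and the lowest point is SLC16A3 in trans1 at 0.698.

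Starvation against control asks which carriers changed their footprints when the cells were starved. Ratios are log2 of (CPM + 1) in starvation over the same in control, and a gene was counted as higher or lower when it passed 2-fold. None of the 44 genes was at least 2-fold higher, against 2.6% of all 10275 transcripts tested, and 3 were at least 2-fold lower (6.82%), against 1.95%. The median log2 ratio was -0.18, with 16 of 44 genes above 0, while over all transcripts the median was -0.004 and 49.7% were above 0.

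The 3 lower genes carry amino acids, folate and nucleosides. SLC19A1, the reduced folate carrier, had 92 reads in starvation and 291 in control, or 9.81 and 27.3 CPM, a log2 ratio of -1.39 (interval of the read ratio -1.83 to -1.13). SLC7A8, a light chain of a neutral amino acid exchanger, had 16 reads in starvation and 79 in control, at 5 and 22 positions, a log2 ratio of -1.64 (-2.99 to -1.33). SLC29A2, a nucleoside transporter, had 470 reads in starvation and 1129 in control, a log2 ratio of -1.07 (-1.24 to -0.92). In SLC29A2 a single position held 78.0% of the window reads in starvation and 88.2% in control, and it was not 2-fold lower without each library's highest position, at -0.24, or with the stop window alone, at -0.19. SLC7A8 was not 2-fold lower with a pseudocount of 5 CPM, and was not tested with a minimum of 10 CPM or of 8 positions in both libraries. SLC19A1 was at least 2-fold lower under every setting tried. SLC25A6 lay just short of 2-fold, with 832 reads in starvation and 1892 in control, at -0.99 (-1.12 to -0.88), although SLC25A5 and SLC25A4 were at 0.01 and -0.03.

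All 5 recovered genes of the vitamin, nucleoside and lipid families had a ratio under 0 in starvation, with a class median of -0.56. Beside SLC19A1 and SLC29A2 these were SLC52A2, a riboflavin transporter, at -0.56, SLC19A2, a thiamine transporter, at -0.29, and SLC23A2, a vitamin C transporter, at -0.14. SLC23A2 was at 1.27 with the stop window alone. Of the 11 mitochondrial carriers, 2 were above 0, SLC25A24, an ATP-Mg/phosphate carrier, at 0.54 (0.42 to 0.67) and SLC25A5. SLC25A33, a pyrimidine nucleotide carrier, was at -0.62 and SLC25A39, needed for mitochondrial glutathione import, at -0.46, or 0.03 with the start window alone. SLC30A1, the zinc exporter of the cell surface, was at -0.72 (-1.18 to -0.40). The other zinc carriers, SLC30A6 of the Golgi, SLC30A9 and SLC39A9, were at -0.45, 0.04 and 0.06, and SLC31A1 was at -0.19. Monocarboxylate carriers spread from -0.61 in SLC16A3 to 0.17 in SLC16A7.

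The highest ratios on all reads stayed under 2-fold. SLC6A3, the dopamine transporter, had 107 reads in starvation and 61 in control, a log2 ratio of 0.88 (0.53 to 1.47). Leaving out each library's highest position gave 1.11 and the stop window alone gave 1.37, both past 2-fold. SLC1A5 had 1449 reads in starvation and 1122 in control, at 0.55 (0.44 to 0.67), and SLC20A1, a phosphate importer, 716 and 608, at 0.41 (0.26 to 0.58). SLC38A2, the other recovered gene tied to ATF4, was at -0.16 (-0.28 to -0.04). With reads of the start window alone, SLC1A5 was at -0.50 and SLC38A2 at -0.61, and with the stop window alone they were at 1.14 and -0.18, so the direction of SLC1A5 turned with the window. SLC20A1 turned as well, at -0.30 with the stop window alone. Of 34 members named by rule, 10 changed sign with the start window alone, and 14 of 33 did with the stop window alone.

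Trans1 against starvation asks what the trans-RNA against ATF4 added to starvation. One of 44 genes was at least 2-fold higher (2.27%), against 1.36% of 10267 transcripts, and 3 were at least 2-fold lower (6.82%), against 1.54%. The median log2 ratio was -0.18, with 14 of 44 genes above 0, against -0.08 and 41.3% over all transcripts. Fewer than 8 positions were found for 11 of the 44 genes in trans1, 0 in trans2, 4 in starvation and 2 in control. A step read from few positions can understate the reads. Under a rule of 8 or more positions in both libraries, a choice made after the data were seen, 0.620% of all transcripts were lower and 0.873% higher. Among the 31 genes that met this rule, 1 gene was lower and none higher.

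That gene was SLC16A7, a monocarboxylate transporter, with 49 reads in trans1 and 176 in starvation, a log2 ratio of -1.14 (-1.72 to -0.77). With a pseudocount of 5 CPM, or with either window alone, SLC16A7 was not 2-fold lower. SLC6A3 had 17 reads in trans1 and 107 in starvation, at 6 and 17 positions, a log2 ratio of -1.72, or -0.58 with the stop window alone. SLC16A3, the lactate exporter of glycolytic cells, had 6 reads in trans1 and 36 in starvation, at 5 and 9 positions. Its log2 ratio was -1.29 (-3.51 to -0.71). SLC16A3 was not counted as lower with a pseudocount of 5 CPM, a minimum of 10 CPM or either window alone. The higher gene was SLC2A13, a proton-coupled myo-inositol transporter, with 218 reads in trans1 and 76 in starvation, at 2.00 (1.75 to 2.53). In trans1 a single position held 166 of its 171 window reads (97.1%), and without the highest position of each library it was not 2-fold higher. SLC1A5 was at -0.18 and SLC38A2 at -0.30, and SLC38A2 was at 0.05 with the stop window alone. SLC25A5, with 4359 reads in trans1 and 9248 in starvation, was at -0.47 (-0.52 to -0.42). Of the other mitochondrial carriers, SLC25A39 was lowest at -0.66 (-0.85 to -0.49). SLC39A9, a zinc transporter, was at -0.70 (-1.01 to -0.44), and SLC47A1, an exporter of organic cations, at -0.76 (-1.41 to -0.31). The highest ratios after SLC2A13 were 0.69 (0.33 to 1.15) for SLC16A9, a carnitine exporter, and 0.65 for SLC7A8.

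Trans2 against starvation uses the same starvation library, so its values are not independent of those of trans1. That library is also the upper term of starvation against control. Counting error in it moves that ratio and both trans ratios in opposite directions. Opposite signs between them were not tested as a response to the trans-RNA. One gene was at least 2-fold higher (2.27%), against 1.95% of 10277 transcripts, and none was at least 2-fold lower, against 0.214%. The median log2 ratio was 0.18, with 32 of 44 genes above 0, against 0.04 and 54.2% over all transcripts. SLC10A3, an orphan of the bile acid transporter family, had 169 reads in trans2 and 99 in starvation, a log2 ratio of 1.02 (0.72 to 1.46). It was under 2-fold once ratios were centred on all transcripts, with a pseudocount of 5 CPM, or with the start window alone, at 0.42. Next came SLC7A8 at 0.84 (0.24 to 2.15), SLC52A2 at 0.82 (0.59 to 1.13), SLC25A22, a mitochondrial glutamate carrier, at 0.82 (0.62 to 1.06), and SLC19A1 at 0.76 (0.43 to 1.22). SLC16A7 was lowest, with 90 reads in trans2 and 176 in starvation, at -0.61 (-1.04 to -0.28). SLC1A5 was at 0.16 and SLC38A2 at 0.26, and SLC38A2 was at -0.19 with the stop window alone.

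Set side by side, the vitamin, nucleoside and lipid carriers had class medians of 0.02 in trans1 against starvation and 0.52 in trans2 against starvation. The mitochondrial carriers had -0.19 and 0.06, and the amino acid class, set by family number, -0.21 and 0.31. SLC16A7 lay under 0 in both and SLC16A3 on opposite sides, at -1.29 for trans1 and 0.68 for trans2. SLC16A3 had 6 reads in trans1, and in trans2 1 position held 22 of its 39 window reads (56.4%). The difference between trans1 and trans2 was not tested. In the 16 recovered genes of other membrane transport families (ABC transporters, SLCO carriers, P-type and vacuolar ATPases) the medians were -0.24, 0.06 and -0.08 for trans1 against starvation, trans2 against starvation and starvation against control.

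**Figure D2:**
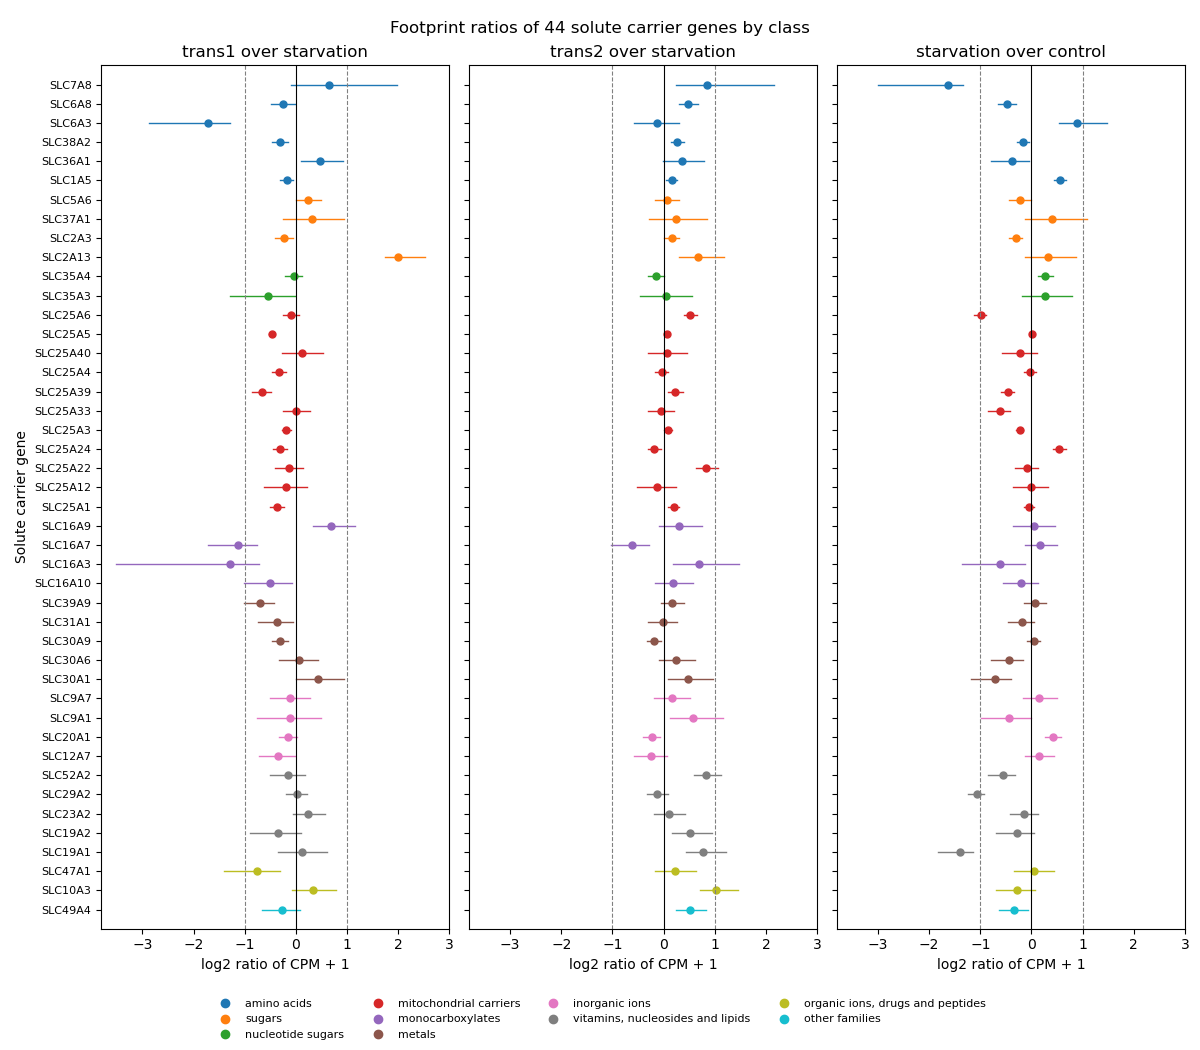
Log2 ratios of CPM + 1 for the 44 genes, grouped by class, in trans1 over starvation, trans2 over starvation and starvation over control. Lines are exact 95% intervals of the read ratio (counting error only), and dashed lines mark 2-fold. Between 1 and 4 genes a panel lie past the dashed lines.

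The authors' deposited tables of fold changes per open reading frame list 78 frames in 34 solute carrier genes, of which 35 are upstream frames in 15 genes and 25 are truncated forms. Their scaling is unknown. In the authors' deposited table the upstream frames of the family had a median log2 fold change of -0.48 for trans1 with starvation, -0.04 for trans2 with starvation and -0.13 for starvation with control. All 6143 upstream frames in the authors' deposited table had -0.33, -0.09 and -0.14. Several upstream frames of the same gene, as in SLC16A7, SLC30A9 and SLC39A3, carry identical values, so the frames are not independent. For SLC25A6 the authors' deposited table gives the truncated frame -1.60 for starvation with control, and for SLC1A5 it gives 0.46. For SLC2A13 in trans1 the authors' deposited table gives 0.01, where the recovered reads, mostly at 1 position, gave 2.00. For the coding frame of SLC7A8 in starvation with control the authors' deposited table gives -0.06, where the recovered reads gave -1.64. For SLC10A3 in trans2 the authors' deposited table gives 0.05 and 0.06, where the recovered reads gave 1.02. For SLC16A7 in trans1 the authors' deposited table gives the truncated frame -0.22 and the upstream frames -1.12. The recovered reads of SLC16A7 in trans1 gave -1.14.

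The start window runs from 30 nt before to 300 nt after the start codon, and the stop window mirrors it. In genes long enough for separate windows, the share of start window reads that lay before the start codon had a median over members of 1.38% in trans1, 3.31% in trans2, 2.61% in starvation and 4.11% in control, against 1.35%, 3.64%, 2.17% and 3.64% over all transcripts. The log2 ratio of reads in the first 300 nt over the last 300 nt had a median of -0.21, 0.04, 0.05 and 0.00 over members, against 0.30, 0.26, 0.21 and 0.24 over all transcripts. The member median was lower in each of the 4 libraries, a difference that was not tested.

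SLC35A4, a Golgi protein of the nucleotide sugar transporter family, stood apart. Of its reads per transcript, 13 of 519 in trans1, 18 of 596 in trans2, 19 of 818 in starvation and 16 of 770 in control lay in the start and stop windows. These are shares of 2.50%, 3.02%, 2.32% and 2.08%, where an even spread over its recovered length of 978 nt would place 63.6%. The exact interval was 1.19% to 3.35% in control. Between 0.0885% and 0.233% of the transcripts with at least 50 reads had a lower share relative to an even spread. The reads outside the windows cannot be placed from the deposited tables. As background, SLC35A4 mRNA is known for an upstream frame that encodes a protein of its own, and RefSeq lists a protein-coding gene, LOC131768270, that overlaps it. The total small RNA library has a sense peak of 17 reads at -417 in the 5′ UTR of SLC35A4. Its footprint ratios, at -0.04 for trans1, -0.14 for trans2 and 0.27 for starvation against control, rest almost wholly on reads outside the start and stop windows.

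**Figure D3:**
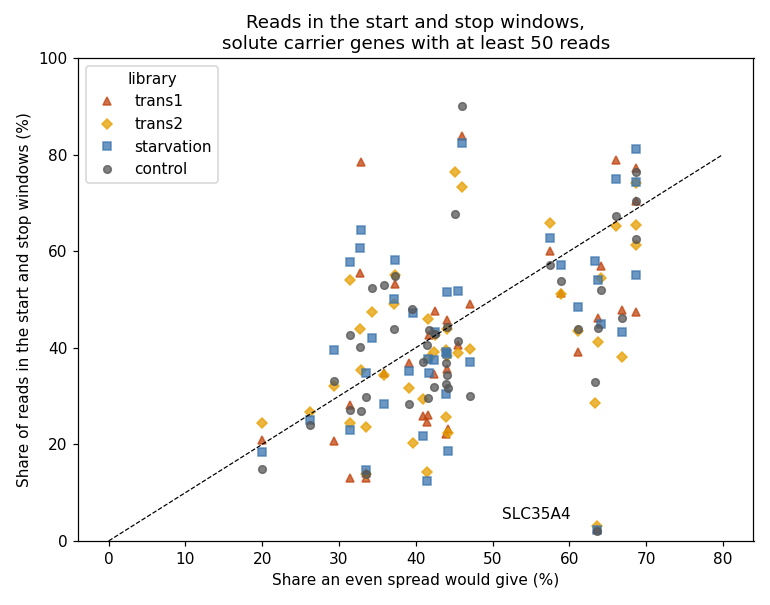
Share of a gene's reads in the start and stop windows (vertical axis, %) against the share an even spread would give (horizontal axis, %), for solute carrier genes with at least 50 reads, 1 point per gene and library. The dashed line marks equality. SLC35A4 lies between 2.08% and 3.02%, against 63.6%, in all 4 libraries.

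Small RNA peaks are positions with at least 4 reads in the deposited lists, given by their distance from the start codon. In the cap library the solute carrier genes had 59 sense peaks in 43 genes and 26 antisense peaks in 23. In the total library they had 42 sense peaks in 35 genes and 31 antisense peaks in 28. Their antisense share was 30.6% in cap (exact interval 21.0% to 41.5%) and 42.5% in total (30.97% to 54.6%), against 28.6% and 41.5% for all other genes. They held 1.31%, 1.44%, 1.23% and 1.28% of all cap sense, cap antisense, total sense and total antisense peaks. Most genes appeared on 1 strand, and 7 had peaks on both: SLC17A7, SLC19A1, SLC25A12, SLC37A1, SLC6A3, SLC6A8 and SLC9A2. SLC19A1 had 4 capped sense reads at -111 and 10 antisense reads of the total library at 3379 in its 3′ UTR.

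Capped sense peaks sat mostly in the 5′ UTR, in 43 of 59 cases (72.9%, 59.7% to 83.6%), against 61.6% in other genes. In the total library 3 of 42 sense peaks (7.14%, 1.498% to 19.5%) lay there, against 12.9% in other genes, and 27 (64.3%) lay in coding sequence. Mitochondrial carriers held 21 of the 59 capped sense peaks of all regions, in 10 genes. Antisense peaks were in coding sequence in 13 of 26 cases in cap (50.0%) and 23 of 31 in total (74.2%), against 54.3% and 55.1% in other genes. The interval of the capped 5′ UTR share takes in the 61.6% of other genes. That of the total antisense coding share starts at 55.4%, just above the 55.1% of other genes, a difference that was not tested.

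**Figure D4:**
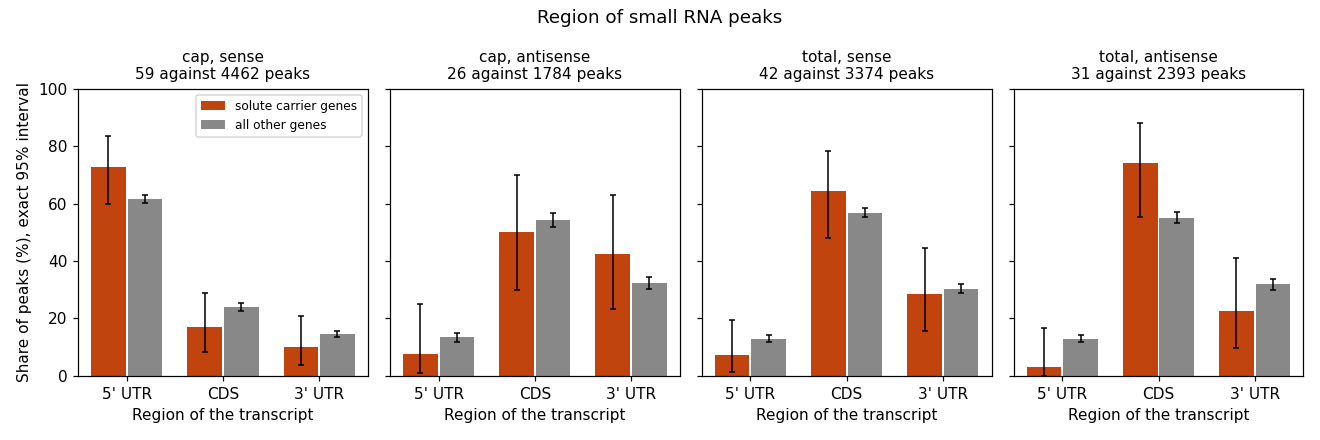
Share of small RNA peaks (%) in the 5′ UTR, coding sequence and 3′ UTR, for solute carrier genes and all other genes, by library and strand, with exact 95% binomial intervals. Capped sense peaks of the solute carrier genes are in the 5′ UTR in 72.9% of cases, and total sense peaks in 7.14%.

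The capped 5′ UTR peaks were shared unevenly among the carriers. SLC25A39 had 7 capped 5′ UTR peaks, from -134 to -89, and the highest, at -128, had 58 reads. SLC25A33 had 42 reads at -203, SLC2A3 41 at -153, SLC30A1 29 at -549 and SLC6A8, the creatine transporter, 23 at -649. Peaks within 50 nt of the start codon made up 3 of 59 capped sense peaks (5.08%, 1.06% to 14.1%), against 17.3% in other genes. SLC25A4 accounted for those at -20 and -19, and its position at -20 had 8 reads in cap and 5 in total. The remaining one was in SLC35A2, a UDP-galactose transporter, with 5 capped reads at -10. In the cap library 8 more peaks lay within 100 nt, which gives 11 of 59 (18.6%), against 29.1%.

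The RefSeq gene starts of the 3 genes with the highest capped 5′ UTR peaks and a single window are printed with the first transcribed bases in capitals, 15 bases before and 15 from the start (GRCh38.p14). The peak lists place peaks by distance from the start codon alone, so peaks were not matched to these bases.
SLC25A39, chr17:44324809-44324838, minus strand: cccttggctgctttcGGCGTCGGCCTAGGT
SLC25A33, chr1:9539450-9539479, plus strand: cgcgcgccgggctctAGCTCCCCGCCGGGC
SLC30A1, chr1:211579147-211579176, minus strand: caaaggcgggggggcGAAGAAGGCGCCCGA

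Among the solute carrier genes, the 3 highest peak positions in the cap library were antisense. Their highest in the total library, described further on, were sense. SLC16A7 had an antisense peak at 4633 in its 3′ UTR with 957 reads in cap and 47 in total. SLC4A4, a sodium bicarbonate cotransporter, had 167 reads in cap and 14 in total at 3543 in its 3′ UTR. SLC25A12, the aspartate/glutamate carrier, had an antisense peak at 1802 in coding sequence with 92 reads in cap and 50 in total. SLC34A3, a phosphate transporter of the kidney, was lower in cap, with 7 reads in cap and 48 in total at 658. The single SLC16A7 position held 957 of the 1552 capped antisense reads of the family, which had 761 capped sense reads.

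Several of the other high antisense peaks fell in coding sequence, while SLC4A8 had 30 capped antisense reads at 5686 in its 3′ UTR. SLC30A6 had 38 reads at 61 and 24 at 822 in the total library, and SLC22A18 had 39 at 1169 in cap. SLC25A29, a mitochondrial carrier of basic amino acids, had 35 reads in cap and 32 in total at 787. SLC6A2, the noradrenaline transporter, had 23 in both libraries at 1337. SLC25A29 and SLC6A2 thus had nearly equal reads in the libraries, unlike SLC16A7 and SLC4A4.

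All 12 genes with an antisense peak in both libraries had it at the same position in both, which is 52.2% of the 23 cap genes and 42.9% of the 28 total genes. In other genes the same-position share was 52.5% and 41.1%. On the sense strand 9 of 13 genes with a peak in both libraries shared a position, 20.9% of cap genes and 25.7% of total genes, against 21.2% and 31.6%. Over the 22 shared positions, cap had more reads in 9 of 10 sense and 10 of 12 antisense cases, against 58.3% and 58.7% in other genes. The library totals of the small RNA data were not used here, so these read numbers are not scaled to depth. Among the carriers, SLC15A2, a peptide transporter, had the highest shared sense position, with 81 reads in cap and 30 in total at 902 in coding sequence. Their highest peak seen in the total library alone was in SLC37A1, a glucose-6-phosphate exchanger, with 87 sense reads at 338. SLC4A1, the anion exchanger of red cells, followed with 85 at 4434. SLC6A3 had 53 sense reads at 919 in the total library alone. SLC25A5, the carrier with the most footprints, had 5 total sense peaks in coding sequence, of 4 to 6 reads each.

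**Figure D5:**
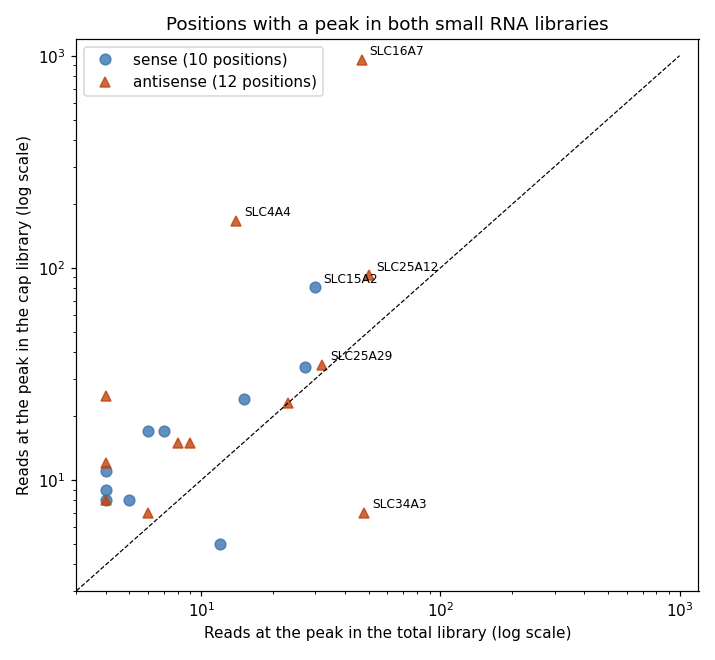
Reads in the cap library (vertical, log scale) against reads in the total library (horizontal, log scale) at 22 positions with a peak in both, in solute carrier genes. The dashed line marks equal reads. SLC16A7 lies highest, at 957 in cap and 47 in total, and SLC34A3 lies under the line at 7 and 48.

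Recovery of footprints differed with the kind of peak. Of the 28 genes with a capped sense peak in the 5′ UTR, 20 were recovered (71.4%, 51.3% to 86.8%), with a median footprint density of 25.5 in control. Of the 37 with other sense peaks, 17 were (45.9%, 29.5% to 63.1%), with a median of 7.22. Of the 32 with antisense peaks alone, 7 were (21.9%, 9.28% to 39.97%), with a median of 35.3 over those 7 genes. The medians leave out the genes that were not recovered. In other genes the shares were 65.1%, 44.2% and 40.7%. Their median densities in control were 31.5, 22.7 and 14.1, lowest for antisense peaks alone. For antisense peaks alone the upper bound of 39.97% lies just under the 40.7% of other genes, a difference that was not tested. Of 38 carriers with an antisense peak that RefSeq lists, 29 overlap another RefSeq gene (76.3%, 59.8% to 88.6%), against 29 of 58 carriers with sense peaks alone (50.0%, 36.6% to 63.4%). In other genes these shares were 61.8% and 57.0%. The table gives no strand, so whether the overlapping gene runs antisense was not analysed here.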

How the data were processed

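The members and gene lists were chosen with earlier results of these data known. Sequencing tools named in the submitters' processing notes, without roles, are STAR 2.7.10a, Bowtie 1.2.3, cutadapt 2.8 and bcl2fastq 2.20.0.422. The notes list the build GRCm39 for the footprint libraries, and the build of the human reads is not stated. The deposited density tables give a footprint signal at each nucleotide of the start and stop windows, scaled by the authors to the transcript's own mean. Each value is a whole multiple of length divided by reads, and this step gave reads for 10280 of 16984 transcripts. Where the length found is a fraction of the true one, reads are lower in all libraries alike and densities are unaffected. The files held no normalised value per gene, and with 1 library per group no test was possible, so differences are described by size. Ratios are log2 of (CPM + 1) for transcripts with at least 1 CPM in either library, and 2-fold is the size rule. In the deposited peak lists the authors give counts of at least 4 reads per peak and, as the other value, the distance from the start codon. The authors' deposited tables give log2 fold changes per reading frame. Their direction, later over earlier group, was read from Spearman correlations of 0.53 to 0.85 with the recovered ratios, across 845 coding frames that are not independent replicates. Of 27 coding peaks of members with a length, 2 (SLC35A4 and SLC16A3) lie past it, and their region is uncertain. Named genes are the 6 highest and 6 lowest ratios of each comparison among members with at least 10 CPM in 1 of the libraries, the 6 with most CPM in control, and carriers tied to ATF4. They also take in the 5 highest peaks per list, genes with peaks on both strands or near the start in both libraries, and classes of 5 or fewer. Other genes, the window share of SLC35A4 and the printed motif genes were picked after their values were seen. The scripts were tested on simulated data. Intervals are exact Clopper-Pearson at 95%. Those of reads cover counting error alone. The reads carry no molecular identifiers, so copies of 1 molecule may be counted more than once. Those of shares of genes or peaks treat each gene or peak as independent, though peaks of 1 gene can lie close together. Python 3.11.15, pandas 2.3.3, NumPy 2.4.6, SciPy 1.17.1 and matplotlib 3.10.9 were used. The mouse liver tables and the reading frame lists under mouse gene IDs were not used here.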

Additional observations from a re-analysis of the deposited data

How the results depend on the processing

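The medians of the 44 footprint ratios kept their sign under every setting tried, from -0.18 to -0.13 for starvation against control, -0.44 to -0.10 for trans1 against starvation and 0.14 to 0.23 for trans2 against starvation. Counts of genes past 2-fold moved, and the cause was not tested. Brackets give the share of all transcripts that passed. With a pseudocount of 5 CPM, 1 gene was lower in trans1 (0.399%) and 0 higher in trans2 (0.749%). With 0.1 CPM 2 were higher in trans2 (2.74%). Centring on all transcripts left 0 higher in trans2 (1.74%). The start window alone gave 4 higher and 6 lower of 43 in trans1, where 5.58% and 9.03% of all transcripts passed, 4 higher of 43 in trans2 (9.30%), and 2 higher and 5 lower of 43 in starvation (5.49% and 8.77%). The stop window alone gave 2 and 10 of 40 in trans1 (5.91% and 11.9%), 5 and 1 of 40 in trans2 (10.01% and 3.23%), and 5 and 6 of 43 in starvation (6.66% and 9.83%). Without the highest position, 0 were higher in trans1 (1.42%) and 1 in starvation (2.60%). At 1.5-fold the counts of 44 were 3 and 6 in trans1 (6.42% and 8.50%), 7 and 1 in trans2 (8.74% and 2.18%), and 1 and 7 in starvation (10.2% in each direction). Asking for 8 positions in both libraries, a choice made after seeing the data, left 0 higher and 1 lower in trans1 (0.873% and 0.620%). For peaks, a minimum of 10 reads left 0 in the 5′ UTR on the antisense strand of either library. Weighted by reads, the antisense share of cap was 67.1%, against 10.8% in other genes, and 1 SLC16A7 peak held 957 of its 1552 reads. Cap antisense reads were then 0.580% in the 5′ UTR, 18.8% in coding sequence and 80.6% in the 3′ UTR, against 20.97%, 57.7% and 21.3% in other genes. Members held 0.119% of cap sense, 0.105% of total sense and 0.366% of total antisense reads. With the highest peak of each gene, a setting also tried for peaks near the start after seeing the data, members held 1.70% of total sense peaks. Within 100 nt of the start lay 11 cap sense, 2 cap antisense, 3 total sense and 2 total antisense peaks. No paired analysis was possible because each group has 1 library, and for the same reason no replicate could be left out. Genes with few positions, 11 of 44 in trans1, have the least certain reads.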
